A study of Mus musculus with 4 samples.

Results

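F13a1 and Ccr2 high cells are described here: myeloid cells in which 4 transcripts of the monocyte lineage, F13a1, Ccr2, Ly6c2 and Csf1r, were together most abundant. They came from bone marrow cultures of wild-type (WT) mice and of mice labelled B2AR-/-, grown for 4 days with IL-6 and GM-CSF at 40 ng/mL each to yield myeloid-derived suppressor cells (MDSCs). The β-adrenergic agonist isoproterenol (ISO) was given at 10 µM to 1 culture of each genotype, and its control received PBS. This gave the groups WT+PBS, WT+ISO, B2AR-/-+PBS and B2AR-/-+ISO, with 1 library of sorted live CD11b+ cells in each. The members were chosen by measured values, namely as the 8% of cells with the highest mean log-scaled level of those 4 genes, after leaving out cells with 3 or more unique molecular identifiers (UMIs, counted transcripts) of the complement genes C1qa, C1qb and C1qc. Of 9525 cells in the files, 9303 passed the filters on gene number and mitochondrial RNA, 9091 were scored and 727 were members.

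Monocytes arise in bone marrow from progenitors they share with neutrophils. Classical mouse monocytes carry Ly6C, encoded by Ly6c2, at a high level, leave the marrow through the chemokine receptor CCR2 and depend on the growth factor receptor CSF1R, while F13a1 encodes the A subunit of coagulation factor XIII. In tumours and in culture with GM-CSF and IL-6, monocytic cells can acquire suppressor functions through the use of arginine and the release of nitric oxide, and with further maturation take up macrophage genes such as Mrc1 and Mertk.

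With 1 library in each group there were no replicates, so no test of a difference between groups was possible, and every interval given below is an exact or normal 95% interval that covers counting error only. UMIs of 1 cell are not independent of each other, so where a few cells hold most UMIs of a gene its interval is too narrow, and the share held by the top 5 cells is given. No cell barcode was shared between libraries, which says little, since the authors pooled the cells and may have split the libraries by their tags (below). CPM below stands for UMIs scaled to a total of 1000000 per library and set of cells. The altered segment in the B2AR-/- mice is not given in the sources used here, and the genotype is used below only as a label. Each cell also carried a multiplexing tag. All 137, 56 and 325 members of WT+PBS, WT+ISO and the library labelled B2AR-/-+PBS had most of their tag UMIs from their own library's tag, as did 208 of 209 in the library labelled B2AR-/-+ISO. The last library stood apart, however, with a median of 479 tag UMIs per member against 1756, 2479.5 and 2661 in the other three, and it held all 51 members with over 20% of their tag UMIs outside the leading tag. Leaving out all cells with such mixed tags took its scored cells from 1998 to 1359. The same step took WT+PBS from 2173 to 2033, WT+ISO from 2260 to 2210 and the library labelled B2AR-/-+PBS from 2660 to 2653. Whether cells with mixed tags belong to the group they were given was not tested.

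The members were RNA-rich beside the other scored cells as a whole, but not beside every set of them. Their median UMI count was 16382 in WT+PBS, 20091.5 in WT+ISO, 14077 in the library labelled B2AR-/-+PBS and 14091 in that labelled B2AR-/-+ISO, whereas the other scored cells had medians of 7182.5, 9899, 6787 and 6543. Non-members high in azurophil granule genes, described below, had higher medians than the members, at 25138, 25957, 21841 and 22656.5. The cells left out for their C1q UMIs were at 15858, 22156.5, 11799 and 13512. In all, the members held 2311589, 1194736, 4817170 and 3105748 UMIs in the same order. Members made up 6.30% of scored cells in WT+PBS (137 of 2173; 95% Clopper-Pearson interval 5.32% to 7.41%) and 2.48% in WT+ISO (56 of 2260; 1.88% to 3.21%). In the libraries labelled B2AR-/-, they made up 12.2% with PBS (325 of 2660; 11.0% to 13.5%) and 10.5% with ISO (209 of 1998; 9.15% to 11.9%). The share was thus lowest in WT+ISO and highest in the library labelled B2AR-/-+PBS.

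**Figure D1:**
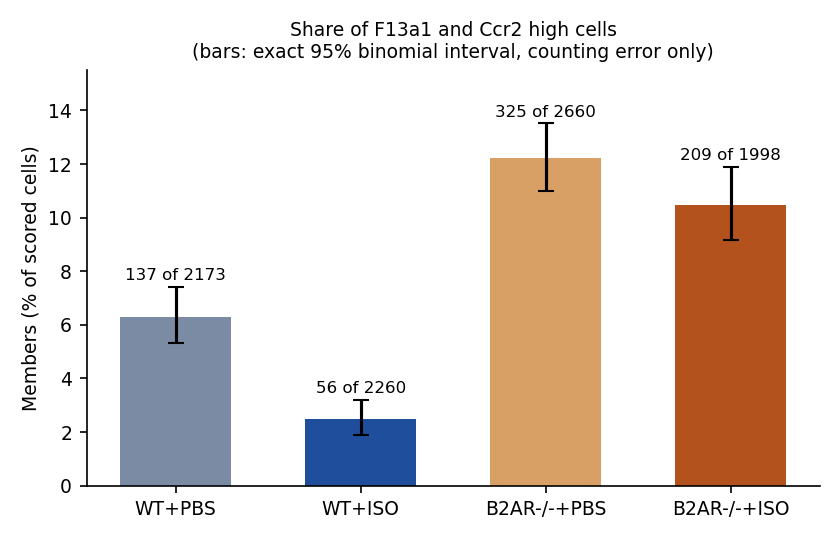
Members as a percentage of the scored cells of each library (y axis), with exact 95% binomial intervals and the counts above each bar. The WT+ISO bar, at 2.48%, lies below the 6.30% of WT+PBS, and both bars labelled B2AR-/- lie above 10%.

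ISO went with a smaller share of members in the WT pair, 0.393 times that with PBS (log2 ratio -1.35; 95% interval -1.79 to -0.91). In the pair labelled B2AR-/- the ratio was 0.856 (log2 ratio -0.22; -0.46 to 0.01), an interval that includes no difference. All 13 alternatives gave a lower share there too, with log2 ratios of -0.45 to -0.075, and in 5 of them the interval excluded 0. The intervals of the 2 pairs did not overlap, but with single libraries the difference between the pairs was not tested against replicates. Under PBS alone, the share was 1.94 times as high in the library labelled B2AR-/- as in WT+PBS. After each cell was thinned to 5000 UMIs, which left out 2711 shallower cells, the shares were 6.51%, 2.11%, 12.8% and 11.1% in WT+PBS, WT+ISO, B2AR-/-+PBS and B2AR-/-+ISO. The size of the difference in the WT pair depended on F13a1, since a score without that gene gave a log2 ratio of -0.54 (-0.88 to -0.20). That score gave, for the pair labelled B2AR-/-, -0.15 (-0.40 to 0.11), so the intervals of the 2 pairs then overlapped. With 1 culture in each group, treatment and culture cannot be told apart, and neither can fewer cells of this kind and less F13a1 RNA per cell.

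Of the 4 genes used to choose the cells, F13a1 (chr13:36867178-37050244, mm10) differed most from the other scored cells. Its level in members was 1741 CPM in WT+PBS, 1046 in WT+ISO, 1904 in the library labelled B2AR-/-+PBS and 1689 in that labelled B2AR-/-+ISO, against 106, 63.4, 145 and 163 in the other scored cells. Members of WT+ISO had the lowest F13a1 level of the 4 libraries. Ccr2 (chr9:124101918-124109140) was at 393, 334, 438 and 392 CPM in members and at 96.8, 59.8, 118 and 94.4 in the other cells. Csf1r was at 153, 155, 171 and 171 in members and at 67.0, 41.3, 67.4 and 66.4 in the other cells. Ly6c2 separated the members least. It was at 885, 1113, 950 and 1002 CPM in them and at 1056, 1264, 1021 and 1067 in the other cells, so its summed level was lower in members in all 4 libraries. The direction turned with the measure: the mean per cell on the log scale of the rule was higher in members, at 2.01, 2.31, 2.02 and 2.13 against 1.82, 2.27, 1.85 and 1.90, while the median on that scale was lower, at 2.13, 2.36, 2.16 and 2.24 against 2.21, 2.55, 2.22 and 2.28. A UMI of Ly6c2 was found in 95.1% to 98.2% of members and in 76.8% to 89.1% of the shallower other cells. Cells high in azurophil granule genes, the granule proteins of early neutrophil progenitors, carried still more Ly6c2, from 1461 to 1555 CPM. A high Ly6c2 level therefore did not set the members apart, and they are called here by F13a1 and Ccr2. All 4 genes were found in 574 members (79.0%), 3 of them in 151 and 2 of them in 2, whereas 6.61% of the other scored cells held all 4.

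The threshold did not fall in a gap of the distribution. The last member had a score of 1.5119 and the first cell left out had 1.5118, with 169 members within 0.1 above the threshold and 189 cells within 0.1 below it. The last member, from the library labelled B2AR-/-+PBS, held 39 UMIs of F13a1, 14 of Ccr2, 5 of Ly6c2 and 1 of Csf1r among its 25780 UMIs. The first cell outside, from WT+PBS, held 10, 6, 3 and 4 among 14986. The median score was 1.75 in members and 0.709 in the other scored cells, so the members form the upper end of a range.

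**Figure D2:**
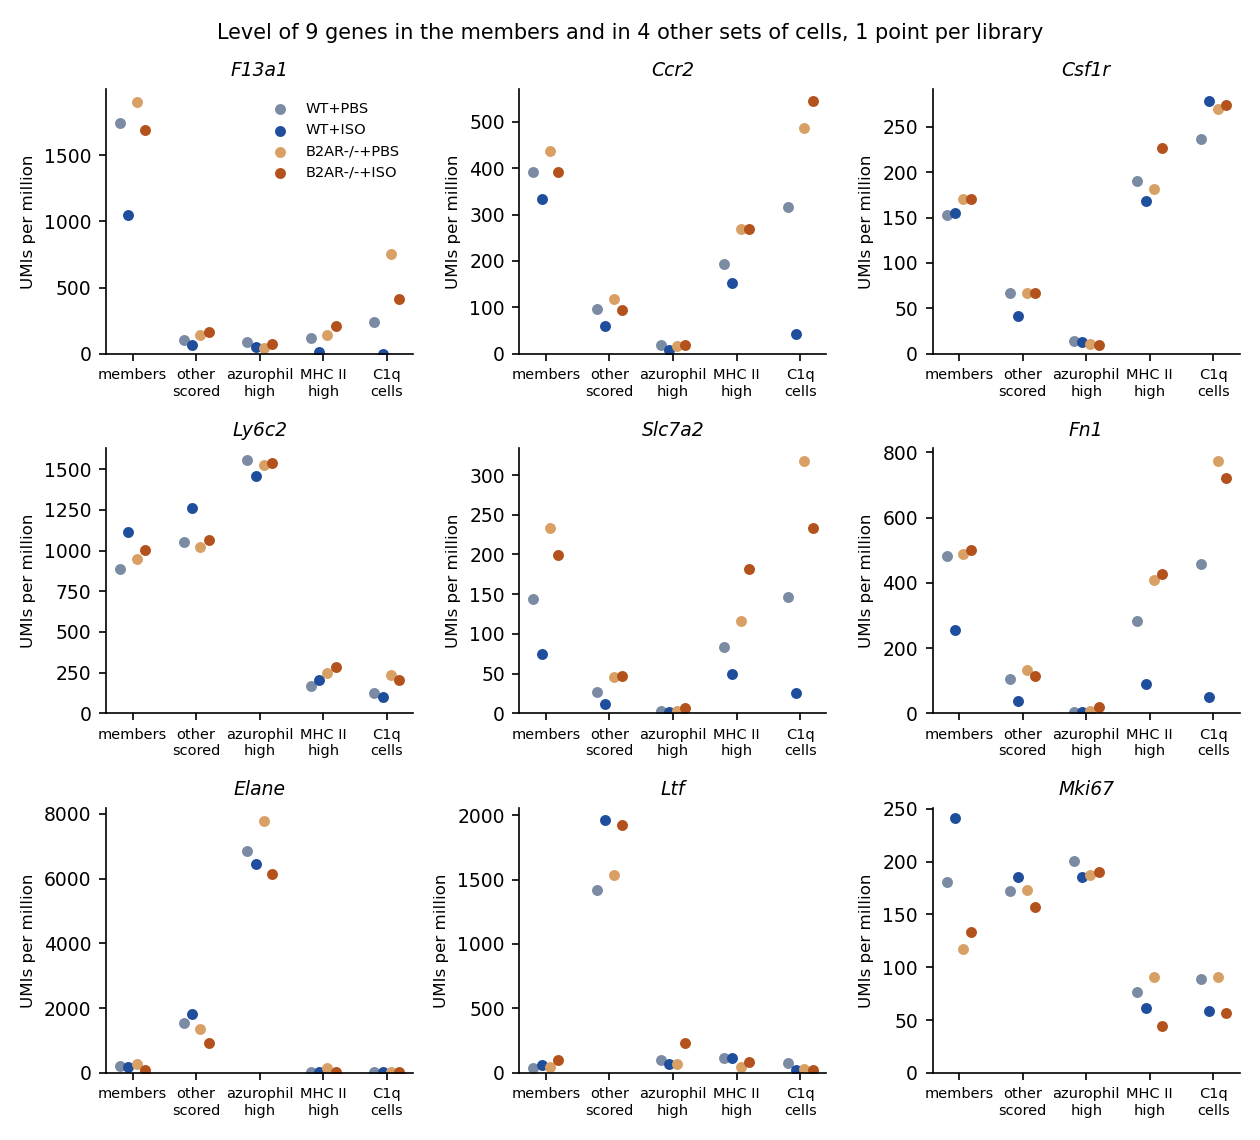
Level (CPM, y axis) of 9 genes in the members and in 4 other sets of cells (x axis), with 1 point per library. F13a1 was highest in members in every library and Ly6c2 was highest in azurophil granule high cells; the C1q set held 4 cells in WT+ISO.

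Of 9473 genes compared, 224 (2.36%) were at least 2-fold higher in members than in the other scored cells in all 4 libraries, and 99 (1.05%) at least 2-fold lower. These ratios are descriptions, because the cells were chosen by their expression. Nos2, the inducible nitric oxide synthase, which uses arginine, was at 19.9, 20.1, 25.5 and 39.3 CPM in members of WT+PBS, WT+ISO, B2AR-/-+PBS and B2AR-/-+ISO, against 2.75, 2.42, 5.47 and 5.09. Slc7a2, which carries cationic amino acids such as arginine into the cell, was at 144, 74.5, 234 and 200 CPM. Both genes were higher in members in each library, and Slc7a2 was lowest in members of WT+ISO.

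Saa3, Fn1, Mrc1 and Mertk were also among the leading genes. Saa3, an acute phase serum amyloid A gene, was at 538, 342, 626 and 553 CPM in members and at 99.8, 70.4, 139 and 117 in the other cells. Fn1, the matrix protein fibronectin, was at 481, 255, 487 and 502 in members, with WT+ISO again lowest. Mrc1, the mannose receptor of macrophages, was at 131, 56.9, 260 and 165. Mertk, a receptor for apoptotic cells, was at 35.9, 9.21, 43.6 and 17.7. Several of these genes were higher still in the C1q cells, which the rule left out and of which WT+ISO held 4. Mertk was at 47.9, 25.3, 137 and 94.9 CPM there, above the members in all 4 libraries. Mrc1 was at 408, 8.43, 545 and 467 there, above the members in all but WT+ISO, and Slc7a2 was above them in the same 3 libraries, by little in WT+PBS at 147 against 144 CPM. The score gene Csf1r was above the members there in all 4 libraries, at 236, 278, 269 and 274 CPM. It was also above them in non-members high in MHC class II genes, at 190, 169, 181 and 226 CPM. Fn1 and the score gene Ccr2 were higher in the C1q cells than in members in both libraries labelled B2AR-/-. Ccr2 was at 487 and 544 CPM in the C1q cells against 438 and 392. Saa3 was higher there in the library labelled B2AR-/-+PBS, at 1089 CPM. The 20 genes that stood most above the other cells in the library of their smallest difference also included the heparan sulfate proteoglycans Sdc4 and Sdc3, Pid1, Plxdc2 and Myof, and their smallest log2 ratio ran from 1.67 for Mrc1 to 3.37 for F13a1.

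**Figure D3:**
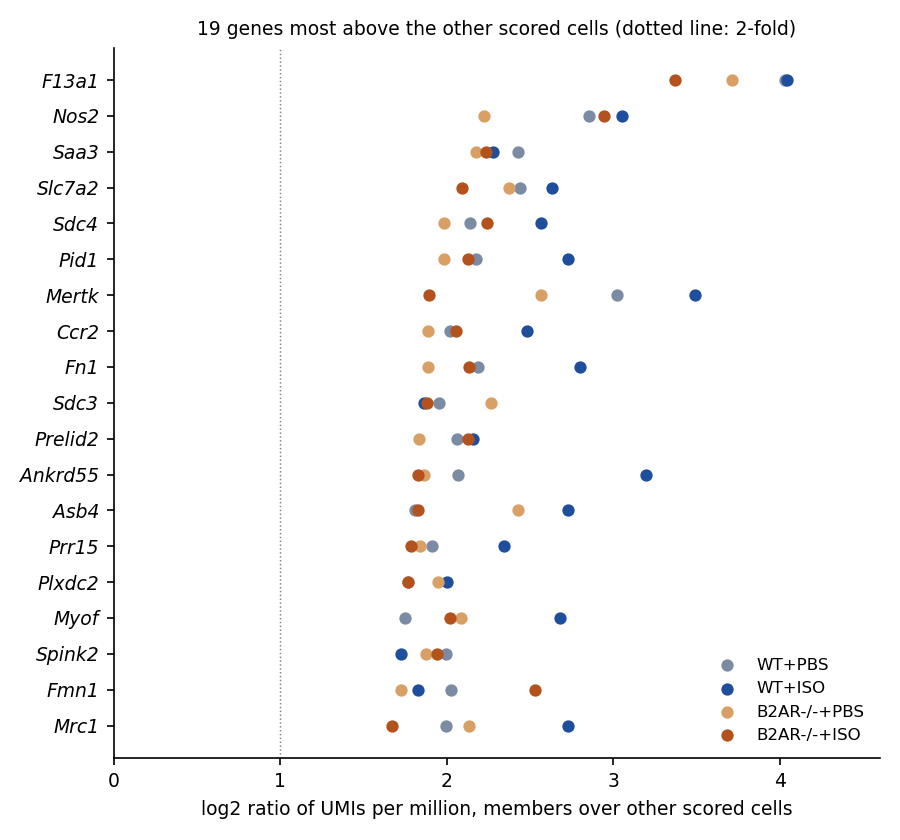
log2 ratio of the level in members over that in the other scored cells (x axis) for 19 leading genes (y axis), with 1 point per library and a dotted line at 2-fold. Every point lies above 1.67, and the smallest ratio was highest for F13a1, at 3.37.

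Neutrophil granule genes were at the other end. Camp, a cathelicidin of specific granules, was at 78.7, 44.4, 31.8 and 130 CPM in members and at 2162, 2993, 2368 and 3292 in the other cells. Ltf, the iron-binding lactoferrin, was at 40.7, 56.9, 41.5 and 96.3 against 1416, 1958, 1534 and 1925. Retnlg, a gene of mature neutrophils, rested on 6, 2, 15 and 9 UMIs in members. Ccl5, Ccr7, Itgb2l, Ngp, Slc40a1, Ncam1 and 4930438A08Rik completed the 10 lowest. As a group, 7 of 9 specific granule genes and 6 of 8 azurophil granule genes were at least 2-fold lower in members in all 4 libraries, against 1.05% of all genes. The alarmins S100a8 and S100a9 remained abundant, at 27343 and 25792 CPM in members of WT+PBS, yet stood below the 54179 and 66504 of the other cells. In the same members the mature neutrophil list summed to 56041 CPM and the MDSC effector list to 54480. S100a8 and S100a9, which are on both lists, thus held most of both sums. Among the 10 lowest genes and the granule lists above they are not counted. Whether free RNA from neutrophils in the same suspension contributed to them was not tested.

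By the marker lists, the members carried a part of the classical monocyte set. Of 26 classical monocyte genes, 8 were at least 2-fold higher in members in all 4 libraries and 1 was lower, against 2.36% and 1.05% of all genes, with a median log2 ratio of 0.63 over the 23 that could be compared. The summed level of the list was nonetheless lower in members, 10456 against 12644 CPM in WT+PBS, because Chil3, a chitinase-like protein shared with neutrophil precursors, was at 2604 in members against 6587. Vcan, the proteoglycan versican, was at 373, 506, 296 and 354 against 104, 113, 105 and 108. S100a4 was at 1156, 950, 1268 and 1278 against 492, 285, 582 and 491. Among transcription factors of the lineage, 3 of 14 compared were at least 2-fold higher in all 4 libraries, against 2.36% of all genes. Klf4, required for monocyte development, was at 67.9, 74.5, 96.3 and 97.2 against 24.4, 18.5, 37.0 and 33.0, and Zeb2 at 652, 508, 805 and 772 against 293, 204, 346 and 350. Cx3cr1, the marker of patrolling monocytes, rested on 5, 3, 15 and 18 UMIs in members.

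Erythroid, basophil, B and T cell genes were nearly absent. The 6 erythroid genes summed to 1 UMI over all members, the 7 basophil and mast cell genes to 14, the 5 B cell genes to 38 and the 6 T and NK cell genes to 42. The macrophage list, in which 2 of 6 compared genes were at least 2-fold higher in members in all 4 libraries against 2.36% of all genes, summed to 485, 374, 670 and 580 CPM. The MHC class II list, the antigen presentation genes of dendritic cells, summed to 741, 510, 995 and 1013 in members, with Cd74 holding 66.1% of it, and 106 members (14.6%) also fell among the 8% of cells highest for class II genes. Of the dendritic cell list, Cd209a, Siglech and Fscn1 had 0 UMIs in all members, and Mgl2 was its most abundant gene. Neutrophil granule genes were present too: the azurophil list summed to 1431, 1821, 1501 and 895 CPM in members, 633 members had fewer than 10 UMIs of 4 azurophil genes, and 289 had fewer than 10 of 4 specific granule genes. The share of these genes in the comparisons below was not tested apart from the alternatives given there.

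The members did not form 1 cluster. When all 9303 cells were grouped by their whole transcriptome into 9 clusters, 583 members (80.2%) lay in a cluster whose leading genes included Pf4, Mrc1 and Slc7a2, and 129 (17.7%) in a cluster led by Serpina3g and Muc13. Only 11 and 4 members lay elsewhere. Members of the larger group carried more macrophage and matrix transcripts, with Fn1 at 589 CPM against 104 in the smaller group, Slc7a2 at 249 against 15.8 and Mrc1 at 249 against 5.02. Members of the smaller group held more of the proliferation marker Mki67, at 357 against 80.6 CPM, more Ly6c2, at 1342 against 838, and more neutrophil elastase Elane, at 693 against 37.1. Their median depth was 21559 UMIs against 14035. F13a1 was abundant in both, at 1903 and 1180 CPM. The smaller group held 19.0% of members in WT+PBS, 28.6% in WT+ISO, 17.2% in the library labelled B2AR-/-+PBS and 14.8% in that labelled B2AR-/-+ISO. These clusters were built from the same genes, so the values describe them and test nothing.

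Hmox1, Slc7a11 and Gclm led the genes named by the naming rule as higher with ISO in WT members, the rule being limited to genes spread over many members. A gene was called where its level, in CPM summed over the members of a library, differed at least 2-fold with its interval away from no change. In the WT pair, 56 of 6881 genes with at least 50 UMIs (0.814%) were called higher with ISO and 74 (1.08%) lower. In the pair labelled B2AR-/-, 21 of 8781 genes (0.239%) were called higher and 16 (0.182%) lower. That balance depended on the settings, since in 11 of 20 alternatives more genes were called lower than higher in the pair labelled B2AR-/-, with up to 51 lower without members with 10 or more specific granule UMIs. Median-of-ratios scaling left 33 higher genes in the WT pair. The median log2 ratio over all genes was 0.06 and -0.02. The second pair held more members and more UMIs, so its intervals were narrower. Of the 56 genes higher in the WT pair, 31 were also above 0 in the pair labelled B2AR-/- and 4 were called there too. Of the 74 that were lower, 46 of the 73 with at least 50 UMIs in both were below 0 there, and 2 were called.

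**Figure D4:**
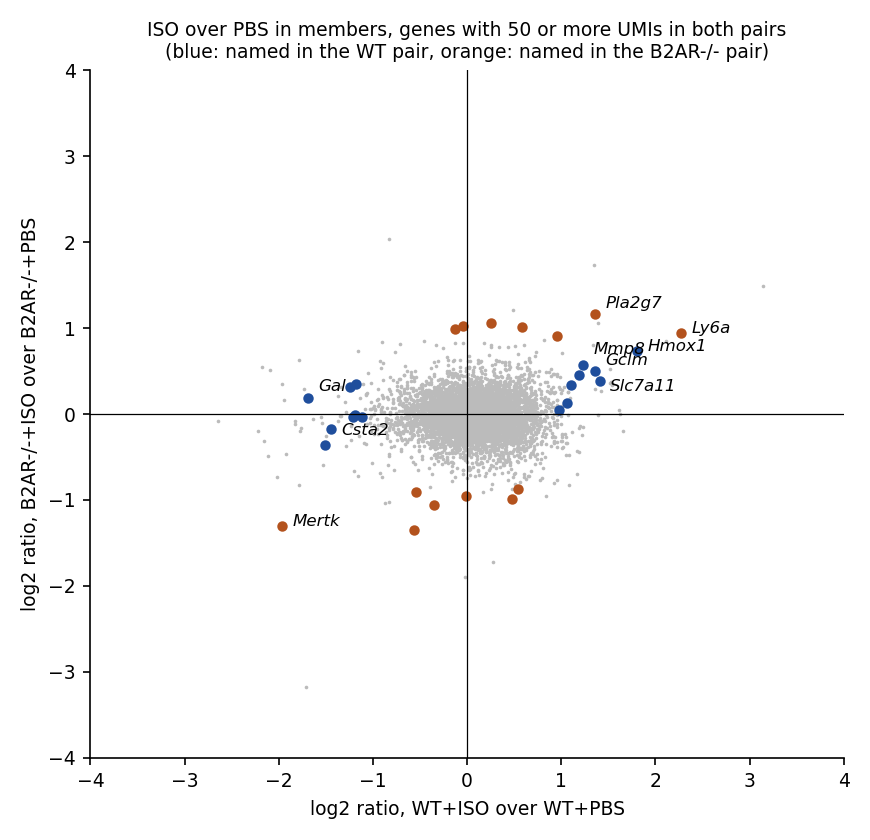
log2 ratio of ISO over PBS in members for the WT pair (x axis) and the pair labelled B2AR-/- (y axis), with 1 grey point for each of 6880 genes that had at least 50 UMIs in both. The genes named in the WT pair (blue) spread from -1.69 to 1.80 along the x axis, and those named in the pair labelled B2AR-/- (orange) from -1.35 to 1.16 along the y axis.

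Hmox1 had the largest increase among the genes that the naming rule gave for the WT pair. It lies at chr8:75093618-75100593 (mm10) and encodes heme oxygenase 1, which breaks down heme, and it is a target of Nrf2, the transcription factor of the antioxidant response. Its level in members was 151 CPM in WT+PBS (348 UMIs), 525 in WT+ISO (627 UMIs), 211 in the library labelled B2AR-/-+PBS and 349 in that labelled B2AR-/-+ISO. The level was thus highest in WT+ISO, with a log2 ratio of 1.80 (1.61 to 1.99) in the WT pair and 0.73 (0.60 to 0.85) in the other. Slc7a11, the cystine importer that feeds glutathione synthesis, was at 130, 346, 124 and 162 CPM, with log2 ratios of 1.41 (1.19 to 1.63) and 0.38 (0.21 to 0.56). Gclm, the modifier subunit of the enzyme that makes the first step of that synthesis, was at 197, 506, 187 and 265, with log2 ratios of 1.36 (1.18 to 1.54) and 0.50 (0.36 to 0.64). All 3 were higher with ISO in both pairs and by more in the WT pair: the WT ratio exceeded the other by 1.07 (0.85 to 1.30) for Hmox1, where a value of 1 is 2-fold, and by 0.86 (0.64 to 1.08) for Gclm. In the other scored cells of the WT pair the same ratios were 0.93 for Hmox1, 0.23 for Slc7a11 and 0.93 for Gclm.

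The higher levels held in both groups of members. In the larger group Hmox1 went from 184 CPM in WT+PBS to 716 in WT+ISO, and in the smaller one from 56.8 to 184. Gclm went from 176 to 447 in the larger group and from 261 to 602 in the smaller one. Thinned to 5000 UMIs, 47.4% of WT+PBS members and 73.2% of WT+ISO members held a UMI of Hmox1, against 6.63% and 3.44% of azurophil granule high cells, the set of cells compared here in which the gene was least often found.

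Most other genes of the Nrf2 response list were higher with ISO as well, though by less than 2-fold. Of 20 genes on the list, 17 had at least 50 UMIs in the WT pair, 16 of these were above 0 and 3 were called higher, against 0.814% of all genes, with a median log2 ratio of 0.54. Among them were the ferritin chains that store iron. Fth1, the heavy chain, was at 18123 CPM in WT+PBS, 32094 in WT+ISO, 17557 in the library labelled B2AR-/-+PBS and 22764 in that labelled B2AR-/-+ISO. Ftl1, the light chain, was at 12210, 17771, 12352 and 13241. Prdx1, a peroxiredoxin that removes peroxide, was at 966, 1667, 840 and 958. Both ferritin genes have many processed pseudogenes, so their counts could include or lose reads shared with these. Of the pentose phosphate enzymes on the list, G6pdx had a log2 ratio of 0.67, Pgd of 0.31, Tkt of 0.06 and Taldo1 of -0.04. In the pair labelled B2AR-/-, all 17 genes were above 0 and none was called, with a median of 0.19. The list as a sum had a log2 ratio of 0.71 (0.69 to 0.72) in the WT pair and 0.26 (0.25 to 0.27) in the other. Fth1 alone held 54.6% of the list's UMIs in members.

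**Figure D5:**
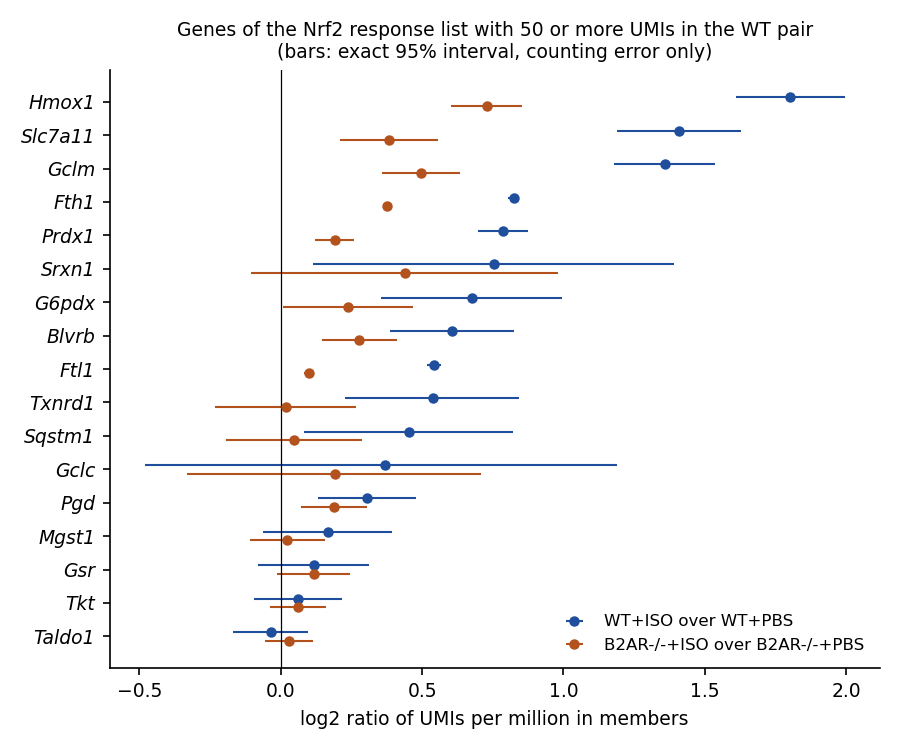
log2 ratio of ISO over PBS in members (x axis) for the 17 genes of the Nrf2 response list with at least 50 UMIs in the WT pair (y axis), with exact 95% counting intervals. The WT pair (blue) lies to the right of the pair labelled B2AR-/- (orange) for Hmox1, Slc7a11, Gclm, Fth1 and Prdx1, and both pairs lie near 0 for Tkt and Taldo1.

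Nrf2 binds the antioxidant response element, whose core was searched as TGACNNNGC on both strands in RefSeq promoter windows of GRCm38.p6 (mm10), from 250 bases before to 50 bases after each start site. Of 16 list genes with a window, 8 held a match in at least 1 window, as did 14.0% of all 27025 genes with a window. Counted by window, 8 of the 23 windows of list genes and 12.4% of all 32851 windows held a match. Gclm and Prdx1 are shown because both carry the match and were higher with ISO in the WT pair. The capitals mark the match, which lies on the minus strand and so reads as its reverse complement, GCNNNGTCA, on the plus strand printed here. A match describes the letters and is not evidence of binding. The Gclm stretch lies upstream of the gene at chr3:122245403-122245451 and the Prdx1 stretch upstream of its gene at chr4:116685446-116685494, both on the plus strand, with the match ending 125 and 124 bases before the start site of the window.
Gclm: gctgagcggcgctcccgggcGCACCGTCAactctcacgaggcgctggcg
Prdx1: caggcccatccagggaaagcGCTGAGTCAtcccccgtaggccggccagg
Of the 2 other called genes of the list, Slc7a11 held no match in its windows, which says only that these letters were not there, and Hmox1 was not searched.

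The remaining genes that the naming rule gave as higher in WT members were Mmp8, Cd38, Treml2, Dlat and Snhg6. Mmp8, the neutrophil collagenase, was at 523 and 1230 CPM in the WT pair and at 458 and 683 CPM in the pair labelled B2AR-/-. Its log2 ratio in the WT pair was 1.24 (1.12 to 1.35), and that in the other scored cells was 0.73. Cd38, an ectoenzyme that consumes NAD, was at 37.2 and 84.5 CPM in the WT pair. Treml2, a myeloid surface receptor, and Dlat, the E2 subunit of pyruvate dehydrogenase, were at 23.4 and 50.2 and at 22.1 and 46.0. Snhg6, a snoRNA host gene, reached a log2 ratio of 0.98 and was not called.

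The macrophage genes Mertk and Mrc1 were lower with ISO in WT members, and Pf4 was higher. Of 5 compared genes of the macrophage list, 2 were called lower, against 1.08% of all genes, and 1 (Pf4) was called higher, against 0.814%. The log2 ratio of Pf4 was 1.51, on 21 and 31 UMIs, while Cd68 was at 0.04. Mertk had a log2 ratio of -1.96 (-3.02 to -1.05), resting on 11 UMIs in WT+ISO, and -1.30 (-1.76 to -0.87) in the pair labelled B2AR-/-, where it was called as well. Mrc1 had ratios of -1.20 (-1.61 to -0.82) and -0.66 (-0.81 to -0.51). Mertk and Mrc1 were lower with ISO in both pairs, and the interval of the difference between the pairs included 0 for Mertk. The other scored cells of the WT pair had ratios of -2.43 for Mertk and -1.94 for Mrc1, so the lower levels were not particular to the members. The 5 members with most Mertk held 46.8% of its UMIs in the WT pair and 15.1% in the other. Slc7a2 had ratios of -0.95 and -0.23. Fn1 had a ratio of -0.91 in the WT pair and 0.04 (-0.05 to 0.14) in the other, where alternative settings gave -0.26 to 0.24. The difference between the pairs was -0.96 (-1.16 to -0.75) for Fn1. In the other scored cells of the WT pair, Fn1 went from 106 CPM with PBS to 36.7 with ISO. Slc7a2 went from 26.447 to 11.998 CPM in the same cells. The lower levels of these genes in the WT pair were thus not particular to the members either. In the pair labelled B2AR-/-, the other scored cells went from 132 to 114 CPM for Fn1 and from 45.1 to 46.9 for Slc7a2.

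Dendritic cell genes were lower with ISO in the WT pair, on few cells. Ccl17, a chemokine of dendritic cells, was counted 155 times in members of WT+PBS and 0 times in those of WT+ISO, and 12 and 2 times in the pair labelled B2AR-/-. The 155 UMIs came from 2.92% of the WT+PBS members, so that their absence in the 56 members of WT+ISO rests on a handful of cells. Ccl22, its neighbour gene, was counted 25, 0, 4 and 1 times in the same order. Mgl2, a C-type lectin of macrophages and dendritic cells, was at 115, 39.3, 76.2 and 71.2 CPM, with 52.2% of its UMIs in the WT pair held by 5 cells. The dendritic cell list summed to 248, 71.1, 162 and 158 CPM, a log2 ratio of -1.80 (-2.15 to -1.47) in the WT pair and -0.03 (-0.20 to 0.13) in the other. In the WT pair the other scored cells had a ratio of -1.57 for the same list. Of 3 list genes with at least 50 UMIs in the WT pair, Ccl17 and Mgl2 were called lower, against 1.08% of all genes. MHC class II genes as a sum had ratios of -0.54 (-0.68 to -0.41) and 0.03 (-0.04 to 0.09). In the other scored cells this sum fell further, with ratios of -1.41 (-1.44 to -1.38) in the WT pair and -0.43 (-0.46 to -0.40) in the other.

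The genes named as lower in WT members by the naming rule were Gal, Stfa2l1, Csta2, Ripk2, Bmpr2, Samd9l, Prelid2 and Tnip3. Gal, which encodes the neuropeptide galanin, was at 200 CPM in WT+PBS and 61.9 in WT+ISO, a log2 ratio of -1.69 (-2.07 to -1.34), while in the pair labelled B2AR-/- it was 0.19. Its ratio in the other scored cells of the WT pair was 0.04. The stefin A family genes Stfa2l1 and Csta2, inhibitors of cysteine proteases, were at 949 and 1081 CPM in WT+PBS and at 334 and 396 in WT+ISO. These genes are near-identical copies, so their counts are uncertain as single genes. Ripk2, the kinase of NOD signalling, was at 43.7 and 18.4, and Bmpr2, a BMP receptor, at 44.6 and 19.3.

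In the pair labelled B2AR-/- the genes named as higher by the same rule were Pla2g7, Pde4dip, Kif2c, Zfp704 and Acpp, followed by Fpr3, Ly6a and Otud7b, which were not called. Pla2g7, a secreted phospholipase that hydrolyses platelet-activating factor, was at 24.7 CPM with PBS and 55.4 with ISO, a log2 ratio of 1.16 (0.82 to 1.51), and had a ratio of 1.36 in the WT pair. Ly6a, the surface antigen Sca-1, was at 63.5 and 122 CPM, a ratio of 0.95 (0.72 to 1.17), with 2.27 in the WT pair. It lies in a family of similar genes, and its ratio in the pair labelled B2AR-/- was -0.30 without members with 10 or more class II UMIs. Those named as lower included Ate1, Mertk and Rpa2, followed by Dcp2, Cog7, Pola1 and Gnl3, which were not called. Ate1, an arginyltransferase that marks proteins for degradation, was at 17.2 with PBS and 6.76 with ISO, on 83 and 21 UMIs. Rpa2, a subunit of the single-strand DNA binding complex, was at 22.2 and 10.6.

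Azurophil granule genes went opposite ways in the 2 pairs, on the counts of few cells. Elane was at 194 and 191 CPM in members of WT+PBS and WT+ISO, and at 279 and 74.7 in the pair labelled B2AR-/-. Prtn3, a serine protease of the same granules, was at 248, 442, 382 and 196. The list summed to a log2 ratio of 0.35 (0.27 to 0.43) in the WT pair and -0.75 (-0.81 to -0.68) in the other. In the pair labelled B2AR-/- 3 of 6 compared list genes (Mpo, Elane and Ctsg) were called lower, against 0.182% of all genes, and Mpo was called lower in the WT pair as well. The 5 richest members held 84.0% and 85.9% of the Mpo UMIs of the 2 pairs, and 71.2% and 47.1% of those of Elane. The ratio of -0.75 became 0.05 (-0.04 to 0.14) once members with 10 or more azurophil UMIs were left out, and the WT ratio of 0.35 became -0.27 when F13a1 was left out of the score. Most specific granule genes were lower in members than in the other cells, Mmp8 being an exception. Ngp went from 172 to 496 CPM in the WT pair and Camp from 31.8 to 130 CPM in the pair labelled B2AR-/-, with 67.5% and 54.6% of these UMIs in 5 cells.

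Genes of the G2 and M phase list had small positive ratios with ISO in the WT pair. All 20 genes of the G2 and M phase list were above 0 in the WT pair, with no gene called and a median log2 ratio of 0.49. Top2a, a topoisomerase of dividing cells, was at 231, 326, 153 and 183 CPM, and Mki67 at 181, 241, 117 and 133. The list sum had ratios of 0.52 (0.45 to 0.59) in the WT pair and 0.24 (0.19 to 0.29) in the other, where it turned to -0.12 (-0.19 to -0.06) without F13a1 in the score, to -0.00097 with the top 12% of cells and to -0.092 without members with 10 or more specific granule UMIs. S phase genes had a ratio of 0.27 (0.16 to 0.37) in the WT pair and -0.31 (-0.40 to -0.23) in the pair labelled B2AR-/-, where 1 of 17 compared genes was above 0. The share of the smaller, Mki67-rich group of members was higher with ISO in the WT pair, from 19.0% to 28.6%, and lower in the other, from 17.2% to 14.8%. The S phase sign in the WT pair also turned without F13a1 (-0.087) or Ly6c2 (-0.19) in the score and, at -0.0033, with the top 12% of cells. Both signs in the WT pair turned when members with 10 or more specific granule UMIs were left out, to -0.43 for G2 and M phase and -0.35 for S phase.

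The metabolic, signalling and apoptosis lists below had smaller summed ratios in the WT pair than the Nrf2 response list. In the tricarboxylic acid (TCA) cycle, 19 of 21 compared genes were above 0 in the WT pair, none was called, and the sum had a log2 ratio of 0.19 (0.12 to 0.27), with -0.04 (-0.09 to 0.02) in the other pair and -0.01 in the WT pair when F13a1 was left out of the score. Acod1, which makes itaconate, was low in members, between 4.77 and 9.02. The glycolysis list summed to a ratio of -0.19 (-0.22 to -0.16) in the WT pair, with 0 of 16 compared genes called. Its ratio was -0.17 in the other scored cells of that pair, and -0.01 (-0.03 to 0.01) in members of the other pair. Of 12 compared genes of the cAMP and CREB response list in the WT pair, 3 were above 0 and 1 was called lower, against 1.08% of all genes. The called gene was Vegfa, at 14.2 against 30.3 CPM. STAT3 response genes had a ratio of 0.01 (-0.07 to 0.09) in the WT pair, with none called. Genes of intrinsic apoptosis summed to a ratio of 0.22 (0.12 to 0.31) and the BCL2-like survival genes to -0.24 (-0.34 to -0.13), without a called gene in either list, and to -0.02 and 0.01 in the other pair. The apoptosis ratio in the WT pair was -0.0086 (-0.22 to 0.20) without members with 10 or more specific granule UMIs. Among MDSC effector genes, Nos2 had a log2 ratio of 0.01 in the WT pair and of 0.62 in the other, where alternative settings gave -0.077 to 1.08.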

How the data were processed

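Bone marrow cells were cultured, sorted, pooled and captured as single cells by the authors, with 1 library for each of 4 groups. The deposited matrices hold whole-number UMI counts for 32285 features. The labels name Cell Ranger 6.0.0, Seurat and mm10, while the file headers give Cell Ranger 7.0.0. Cells passed with 200 or more detected genes and no more than 10% of UMIs from mitochondrial genes, and those with 3 or more C1q UMIs were then left out. Each cell was brought to 10000 UMIs, values were log1p-transformed, and the 8% of cells with the highest mean of the 4 genes were taken. The members and all gene lists were chosen with earlier results of these data known. No doublet caller was run. Groups followed the sample titles, since the treatment field names isoproterenol for every sample.

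UMIs of members were summed per library and compared as a ratio with an exact 95% conditional binomial interval. Genes with at least 50 UMIs were compared. Genes were named if they had at least 100 UMIs, were found in 10% of members and had at most 25% of UMIs in 5 cells, 8 in each direction and pair. Genes that differed at least 2-fold in all 4 libraries were ranked by their smallest ratio. No p-value was computed, as each group had 1 library. Clusters used scanpy 1.11.5 for 2000 variable genes and 30 components. The Leiden method of igraph was then run at resolution 0.4 on a graph of 15 neighbours per cell. The ratio and its interval were tested on simulated data. Analyses ran in Python 3.11.15 with numpy 2.4.6 and scipy 1.17.1. Some genes that the naming rule chose are not reported here.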

Additional observations from a re-analysis of the deposited data

Results flagged for a closer look

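In 5 gene lists the members of the WT pair and of the pair labelled B2AR-/- differed in opposite directions with ISO, with each counting interval away from 0. Azurophil granule genes had a log2 ratio of 0.35 in the WT pair and -0.75 in the other. Mature neutrophil genes, of which S100a8 held 48.0% of UMIs, had ratios of -0.22 and 0.11. S phase genes had ratios of 0.27 and -0.31. MDSC effector genes, of which S100a8 held 49.5% of UMIs, had ratios of -0.19 and 0.12. They share S100a8 and S100a9 with the mature neutrophil list, and these genes held most of both sums, so the contrasts of these lists are not separate results. The median ratio over MDSC effector genes was -0.04 and 0.11. In the other scored cells the MDSC effector sum had ratios of 0.15 and 0.13, and the mature neutrophil sum 0.14 and 0.13. Genes of respiratory complex I had ratios of 0.07 and -0.08. All 5 contrasts depended on the settings. Azurophil genes moved to -0.27 in the WT pair without F13a1 in the score and to 0.048 in the other pair without members rich in azurophil UMIs, mature neutrophil genes moved to 0.14 in the WT pair without Ly6c2 and to -0.019 and -0.0041 in the other without members rich in specific granule UMIs and without mixed tags, and S phase genes turned in the WT pair in 4 settings, to between -0.35 and -0.0033. MDSC effector genes moved to 0.17 in the WT pair without Ly6c2 and to -0.017 in the other without members rich in specific granule UMIs, and complex I genes moved in the WT pair to -0.030 without F13a1 and to -0.015 with median-of-ratios scaling. The differences between the pairs were 1.09 (0.99 to 1.19), -0.33 (-0.34 to -0.31), 0.58 (0.45 to 0.71), -0.32 (-0.33 to -0.30) and 0.15 (0.10 to 0.21) on the log2 scale, with intervals for counting error only. Without replicates, whether the 2 pairs differ was not tested.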

How the results depend on the processing

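The lower share of members in the WT pair kept its direction under all alternatives run, and its log2 ratio moved to -0.54 without F13a1 in the score, -1.80 with the top 4% of cells and -1.89 without members with 10 or more specific granule UMIs. The Nrf2 list, a sum made up mostly of Fth1 and Ftl1 except where a median is named, stayed above 0 in both pairs. In the WT pair it was 0.52 without Ccr2, 0.61 without Csf1r, 0.79 without F13a1 and 0.69 without Ly6c2 in the score, 0.74 with stricter cell filters and with the top 4% of cells, 0.86 with clusters at fixed weights, 0.77 with equal weight per cell, 0.54 as a median over genes, 0.62 with median-of-ratios scaling, 0.48 with thinned cells, and 0.62, 0.83 and 1.07 without members rich in class II, azurophil and specific granule UMIs. In the other pair it was 0.18 without Ccr2, 0.19 without F13a1, 0.24 without Ly6c2, 0.22 with clusters at fixed weights, 0.28 without the 20 most abundant genes, 0.19 as a median, 0.27 with median-of-ratios scaling, 0.25 with no C1q filter, 0.28 with thinned cells, and 0.21 and 0.23 without members rich in azurophil and specific granule UMIs. Chosen after seeing the data, the largest cluster alone gave 0.90 and 0.24, and leaving out mixed tags gave 0.28 in the pair labelled B2AR-/-.

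Counts of called genes changed with the UMI minimum by construction. At 20 and 200 UMIs the WT pair had 152 and 5 higher and 125 and 15 lower, and the other pair 64 and 5 higher and 59 and 5 lower. Higher genes in the WT pair numbered 95 with equal weight per cell, 33 with median-of-ratios scaling and 34 without members rich in class II UMIs, and in the other pair 11 without Ccr2. Lower genes in the WT pair numbered 45 without F13a1, 113 with thinned cells and 47 without members rich in class II UMIs. In the pair labelled B2AR-/- they numbered 29, 33 and 26 without Ccr2, F13a1 and Ly6c2, 35 with equal weight per cell, 32 with no C1q filter, 43 with thinned cells, 44 with the top 4% of cells, 42 and 51 without members rich in class II and specific granule UMIs, and 35 without mixed tags. The cause of these changes was not tested.

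Among list and gene ratios whose interval excluded 0, signs turned in these cases. Without F13a1 in the score, G2 and M phase (-0.12), Nos2 (-0.077) and classical monocyte genes (0.0014) turned in the pair labelled B2AR-/-, and S phase (-0.087), TCA cycle (-0.012), complex I (-0.0301) and azurophil granule genes (-0.27) in the WT pair, where complex I also turned with median-of-ratios scaling (-0.0152). Without Ly6c2, S phase (-0.19), mature neutrophil (0.14) and MDSC effector genes (0.168) turned in the WT pair. Specific granule genes in the WT pair turned without Csf1r (-0.20) and with thinned cells (-0.078). With the top 12% of cells, S phase in the WT pair (-0.00329) and G2 and M phase in the other (-0.000970) turned. Without members with 10 or more specific granule UMIs, the WT pair had G2 and M phase at -0.43, S phase at -0.35, classical monocyte genes at 0.015, intrinsic apoptosis at -0.0086 and macrophage genes at 0.092, and the other pair had G2 and M phase at -0.092, mature neutrophil genes at -0.019 and MDSC effector genes at -0.0170. Without members rich in class II UMIs, Ly6a was at -0.30 in the pair labelled B2AR-/-. Without members rich in azurophil UMIs, azurophil genes in the pair labelled B2AR-/- were at 0.048. As a median over genes, macrophage genes there were at 0.060, and without mixed tags mature neutrophil genes were at -0.00413.

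Ratios whose interval included 0 also changed sign: in the pair labelled B2AR-/-, Fn1 kept its sign in 7 of 18 alternatives (-0.26 to 0.24), MHC class II genes in 10 of 19, dendritic genes in 16 and glycolysis in 7, and in the WT pair Nos2 in 12 of 18.

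No paired analysis was possible because the 4 groups hold a single library each, all numbered replicate 1. With 56 members in WT+ISO, depth limits genes of few UMIs, and intervals cover counting error only.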

Other observations

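Neutrophil-attracting chemokines were expressed in the members. Cxcl3 was at 12.5 CPM in WT+PBS, 110 in WT+ISO, 11.8 in the library labelled B2AR-/-+PBS and 33.2 in that labelled B2AR-/-+ISO. It was called higher in both pairs, with log2 ratios of 3.14 (2.55 to 3.77) and 1.49 (1.01 to 1.98), and was named here after its values were seen. A UMI of it was found in 11.7% and 41.1% of WT members, and 5 cells held 47.2% of its UMIs in that pair. Cxcl2, a related chemokine, was at 441, 633, 391 and 387 CPM in the same order, with ratios of 0.52 (0.38 to 0.66) and -0.01. Ccl6, the most abundant gene of the chemokine list, was at 2796, 2556, 2225 and 2472. Cd177, a neutrophil surface protein, was called higher with ISO in both pairs, with ratios of 1.39 and 1.06, on 28 and 38 UMIs in the WT pair.

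Pf4, a chemokine of platelets and macrophages, was at 9.08, 25.9, 23.9 and 34.5 CPM, with 63.5% of its UMIs in the WT pair held by 5 cells. Interferon response genes were close to even, with list ratios of -0.01 (-0.12 to 0.09) and -0.07 (-0.14 to -0.01) and no gene called. Of 24 compared genes of respiratory complex I, 12 were above 0 in the WT pair and 4 in the other.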
